A study of Arabidopsis thaliana with 24 samples.

Results

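The atx1/2 double mutant of Arabidopsis thaliana was set against the wild-type accession Col-0. ATX1 and ATX2 are a pair of closely related trithorax-type enzymes that methylate lysine 4 of histone H3, a mark found over transcribed genes. They act inside COMPASS, a complex of a methyltransferase with shared core subunits such as WDR5A and ASH2R. ATX1 is known from earlier work for its part in flowering, through the repressor FLC, and in defence, through the transcription factor WRKY70.

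Members were all genes with a normalised read count of at least 1 in 2 or more of the 14 libraries in the deposited table that holds atx1/2. This kept 24843 of 32548 genes. The tested plants are labelled homozygous mutant for ATX1 and ATX2 (2 libraries), without naming the alleles, and the controls wild-type Col-0 (2 libraries). The other genotypes of the table, with 2 libraries each, were atx4/5, atx1/2/4/5, which carries mutations of ATX1 and ATX2 together with ATX4 and ATX5, atx2/3/4/5, jmj24/26/28 and the RNAi line WDR5A_RNAi. All were whole seedlings, 11 days old, grown on MS plates under a 16 h day at 23 °C with an 8 h night at 22 °C. Whole seedlings hold many tissues, so fewer cells of a type and less RNA per cell cannot be told apart. The labels do not say whether replicates came from separate plates or sowings, and the spread that the p-values rest on may therefore be technical.

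The 2 atx1/2 and 2 Col-0 libraries held an estimated 25.6 to 28.9 M reads each, and a value of 1 stood for about 1 read. Values are normalised read counts per gene, made by the authors and not scaled for gene length, so levels are compared between genotypes and not between genes. Over genes, Pearson's r of the log2 values was 0.9886 between the atx1/2 libraries and 0.9887 between the Col-0 libraries, against 0.9861 to 0.988 between an atx1/2 and a Col-0 library. Fold changes are on the log2(value + 1) scale, atx1/2 over Col-0, with standard errors (SE) from limma, and a gene is called when its adjusted p is under 0.05.

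The mutated genes were examined first. ATX1 (AT2G31650, chromosome 2, 13455272 to 13462431 in the TAIR10.1 annotation) had 181 and 181 normalised reads in the atx1/2 libraries, against 258 and 257 in the Col-0 libraries. Both atx1/2 libraries lay below both Col-0 libraries, but the difference did not pass the test (log2 fold change -0.51 ± 0.40, 95% interval -1.43 to 0.42, limma adjusted p = 0.921). In the atx1/2/4/5 libraries of the same fit ATX1 had 568 and 191 reads, and without the first of these the limma adjusted p was 0.111. ATX2 (AT1G05830, chromosome 1, 1754130 to 1761909) had 1313 and 1318 reads in atx1/2, against 1273 and 1393 in Col-0. Its atx1/2 values lay between those of Col-0 (log2 fold change -0.02 ± 0.06, limma adjusted p = 0.999). Reads from anywhere in a gene enter its value, so whether its transcript is whole was not tested.

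**Figure D1:**
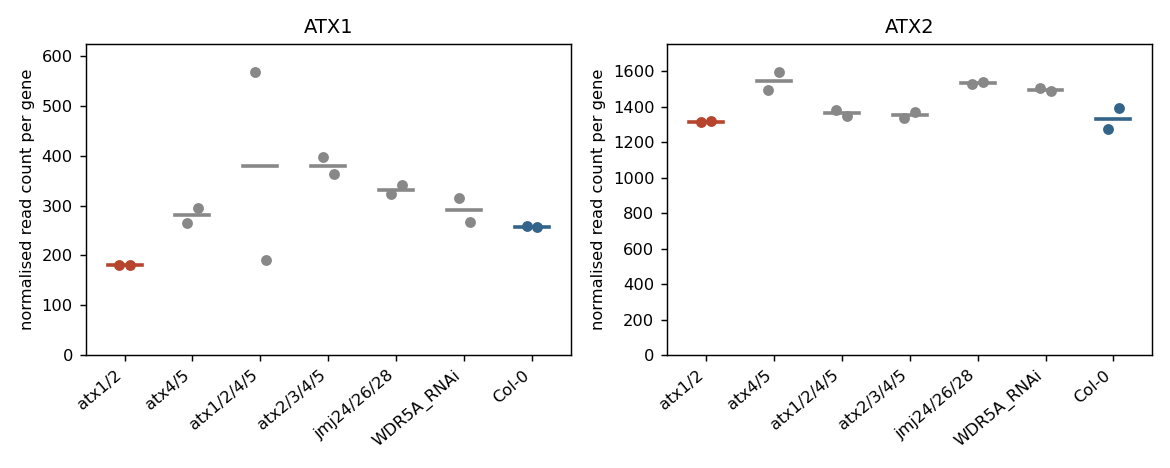
Normalised read counts of ATX1 and ATX2 in every library of the table, by genotype. Points are libraries and bars are the means of 2. ATX1 is at 181 in both atx1/2 libraries, below the 258 and 257 of Col-0, while ATX2 is at 1313 and 1318, between the 1273 and 1393 of Col-0.

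In all, 70 genes passed the test, which is 0.282% of the genes tested. Of these, 20 rose in atx1/2 (0.0805%) and 50 fell (0.201%). The falls were also the larger: their median log2 fold change was -1.18, with a range of -6.30 to -0.35, while that of the rises was 1.08, with a range of 0.36 to 3.18. A change of at least 2-fold was reached by 11 of the rises (0.0443% of genes tested) and 32 of the falls (0.129%). The median log2 fold change over all genes was 0, and 1747 genes (7.03%) had an unadjusted p under 0.05. The higher group's mean was under 1000 reads for 45 of the 50 falls. The median level over the atx1/2 and Col-0 libraries was 137.6 reads for the falls and 111.2 for the rises, beside 281.8 for all genes tested.

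**Figure D2:**
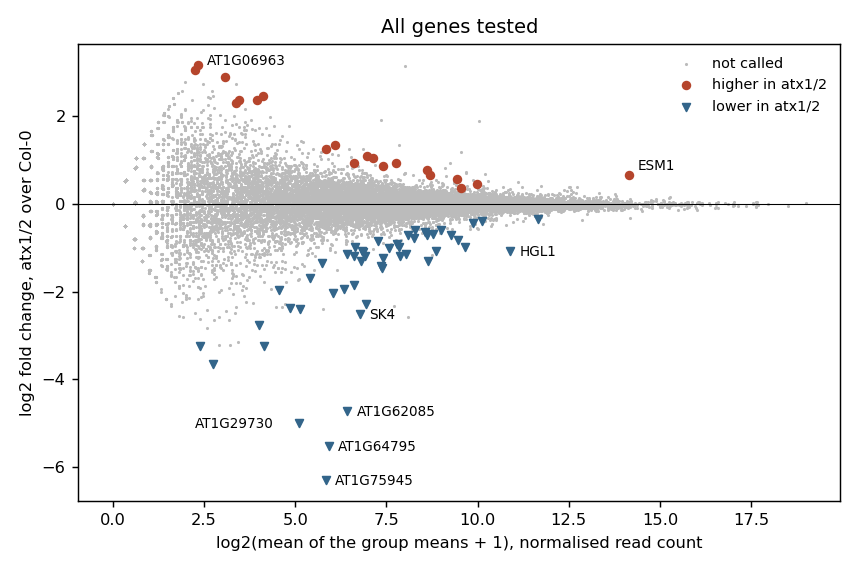
Log2 fold change (atx1/2 over Col-0) of the 24843 genes tested against their mean level, as log2(mean of the group means + 1). Red circles are the 20 genes called higher and blue triangles the 50 called lower. Grey points were not called.

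The number of calls depended on single libraries. Without atx1/2 replicate 1 there were 2 rises and 27 falls, without atx1/2 replicate 2 there were 3 and 24, without Col-0 replicate 1 there were 3 and 15, and without Col-0 replicate 2 there were 13 and 31. Of the 70 called genes, 1 rise and 15 falls passed in all 4 of these fits. With only the atx1/2 and Col-0 libraries in the fit, 2 rises and 10 falls passed.

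The largest falls were in genes with little annotation, which are named here after their values were seen. AT1G75945 (chromosome 1, 28515245 to 28515916), an uncharacterized protein, had 1 and 0 reads in the atx1/2 libraries against 108 and 117 in the Col-0 libraries, as estimated read numbers. The ratio of Col-0 over atx1/2 was 214, with a 95% interval from counting error of 37.3 to 8320, and the fall passed the test (limma adjusted p = 6.92e-07). AT1G64795, another uncharacterized protein, had 2 and 1 reads in atx1/2 against 119 and 115 in Col-0, a ratio of 72.7 (24.6 to 355) of Col-0 over atx1/2. In both genes atx1/2 was thus close to the level of no reads while Col-0 was above 100. AT1G75945 also stood at 4.79 and 8.22 normalised reads in atx4/5 and at 10.3 and 14.8 in atx1/2/4/5, and the direct contrasts put atx1/2 below both (limma adjusted p = 0.00228 and 1.74e-05). In jmj24/26/28 it had 2.49 and 1.98 reads, nearly as low as in atx1/2. AT1G64795 was listed at 0 in both atx4/5 libraries and had under 8 reads in every library other than those of Col-0 and WDR5A_RNAi. AT1G64795 overlaps the gene model AT1G64790 on the other strand, and the strand of the libraries is not given, so reads of the pair cannot be told apart.

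AT1G62085, a mitochondrial transcription termination factor family protein, had 6.23 and 4.48 normalised reads in atx1/2 against 154 and 176 in Col-0 (log2 fold change -4.72 ± 0.25, limma adjusted p = 8.31e-08). Its level in atx4/5 was 174 and 193 reads, close to Col-0, and in atx1/2/4/5 it was 10.5 and 7.97. The contrast of atx1/2 with atx4/5 passed the test for this gene (log2 fold change -4.87, limma adjusted p = 1.72e-08), and of the 7 genotypes the gene was under 11 reads in atx1/2 and atx1/2/4/5 alone. AT3G56210, an ARM repeat protein, had 556 and 511 reads in atx1/2 against 1068 and 1057 in Col-0 (log2 fold change -0.99 ± 0.08, limma adjusted p = 5.38e-06). The noncoding gene AT4G04223 also fell, with 8.35 and 11.0 reads in atx1/2 against 80.5 and 36.9 in Col-0. Its transcript is 99.1% identical to that of AT3G56210 over 63.8% of its length, so reads could have been shared between the pair and neither level is certain. The call of AT4G04223 was lost without Col-0 replicate 1 (adjusted p = 0.267), which has the 80.5 reads, and without atx1/2 replicate 1 (0.217) or replicate 2 (0.101). The calls of AT1G75945, AT1G64795, AT1G62085 and AT3G56210 held without any 1 of the 4 libraries.

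AT3G62500, annotated as an F-box protein, had 29.2 and 36.4 reads in atx1/2 against 121 and 134 in Col-0 (log2 fold change -1.93 ± 0.19, limma adjusted p = 1.70e-04). The transcript most like it belongs to ATX3 (82% identity over 34.8% of its length), a related methyltransferase gene. ATX3 itself had 444 and 437 reads in atx1/2, against 388 and 384 in Col-0, and did not pass the test (limma adjusted p = 0.774). AT3G62500 was at 170 and 162 reads in atx4/5 and at 14.7 and 16.3 in atx1/2/4/5, and atx1/2 differed from both in the direct contrasts (limma adjusted p = 4.28e-06 and 7.59e-04). The order was thus atx1/2/4/5, atx1/2 and then atx4/5, with no overlap of libraries.

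A run of 3 neighbouring receptor kinase genes fell together on chromosome 1. AT1G29720, AT1G29730 and AT1G29740 (10393659 to 10413119 in all) encode leucine-rich repeat transmembrane kinases and lie on the minus strand next to RKF1, a kinase of the same family. The 250 bases before each annotated gene start are shown because the genes stand side by side and moved together. Each is read from the TAIR10.1 genome on the minus strand, 5′ to 3′, at chr1:10399874-10400123, chr1:10405914-10406163 and chr1:10413120-10413369, and capitals mark the letters TATAAA on either strand.
AT1G29720: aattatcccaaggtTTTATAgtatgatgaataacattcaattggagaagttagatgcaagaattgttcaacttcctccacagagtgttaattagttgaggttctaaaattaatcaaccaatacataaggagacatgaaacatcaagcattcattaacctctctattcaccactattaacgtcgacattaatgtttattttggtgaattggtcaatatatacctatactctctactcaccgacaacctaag
AT1G29730: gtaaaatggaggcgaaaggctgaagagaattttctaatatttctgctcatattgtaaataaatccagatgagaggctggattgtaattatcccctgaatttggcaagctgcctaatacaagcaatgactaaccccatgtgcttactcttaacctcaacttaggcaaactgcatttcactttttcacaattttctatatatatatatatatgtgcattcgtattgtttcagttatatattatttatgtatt
AT1G29740: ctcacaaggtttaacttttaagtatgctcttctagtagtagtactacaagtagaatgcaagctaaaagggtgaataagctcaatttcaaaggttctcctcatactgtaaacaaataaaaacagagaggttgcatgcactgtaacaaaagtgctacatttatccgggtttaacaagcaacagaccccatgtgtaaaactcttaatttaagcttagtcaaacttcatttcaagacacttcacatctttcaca
The letters TATAAA occur in 1 of the 3 windows, and in 46.2% of the windows of the same length before 24842 genes tested. Among all called genes the share of windows with TATAAA was 40% for the rises and 44% for the falls, and that of GAGAGA was 10% in the rises and 20% in the falls, beside 20.1% of all genes tested.

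AT1G29720 had 33.4 and 47.3 reads in the atx1/2 libraries, against 159 and 247 in the Col-0 libraries (log2 fold change -2.29 ± 0.28, limma adjusted p = 0.00103). AT1G29730 had 0 and 3 estimated reads in atx1/2 against 72 and 59 in Col-0, a ratio of 40.2 (13.6 to 200) of Col-0 over atx1/2. AT1G29740 had 0 and 0 estimated reads in atx1/2 against 11 and 12 in Col-0, and was at least 3.56-fold lower, taking 3 reads per library as the floor. The groups did not overlap for any of the 3, but the genes were picked as called ones, so this is not a result. Their calls held without any 1 of the 4 libraries. RKF1 (AT1G29750), the fourth gene in line, had 455 and 562 reads in atx1/2 against 717 and 780 in Col-0 and was not called (log2 fold change -0.56 ± 0.55, limma adjusted p = 0.953). Both its atx1/2 libraries lay below both Col-0 libraries. In atx1/2/4/5 RKF1 had 24.1 and 4.93 reads, a spread that enters its SE. AT1G29730 and AT1G29740 are 87% identical over most of their transcripts, so a small number of their reads may be assigned to the wrong copy. The run was also low in jmj24/26/28, with 10.7 and 12.9 reads of AT1G29720, 0.77 and 1.98 of AT1G29730 and 0 of AT1G29740 in both libraries, and AT1G29730 had 1.70 and 2.45 reads in atx1/2/4/5. In atx4/5 AT1G29730 had 76.5 and 66.1 reads, and the contrast of atx1/2 with atx4/5 passed the test for it (limma adjusted p = 3.97e-05) as for AT1G29740 (9.53e-05) and AT1G29720 (0.00965).

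SK4, a SKP1-like subunit of ubiquitin ligases of the SCF type, had 33.3 and 29.98 reads in atx1/2, against 188 and 182 in Col-0 (log2 fold change -2.51 ± 0.17, limma adjusted p = 1.49e-06). It was at 172 and 205 reads in atx4/5, at 46.99 and 43.6 in atx1/2/4/5 and at 30.6 and 32.7 in jmj24/26/28. The jmj24/26/28 libraries thus overlapped those of atx1/2, so the low level was not limited to genotypes mutated in ATX1 and ATX2. Of the genes with a symbol, SK4 alone passed under every setting tried. DUF9, an Agenet-domain protein, had 2.103 and 4.38 reads in atx1/2 against 24.5 and 29.3 in Col-0 (log2 fold change -2.77 ± 0.45, limma adjusted p = 0.0136). Its adjusted p lay between 0.0364 without atx1/2 replicate 2 and 0.193 without atx1/2 replicate 1.

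A pair of myosin genes and a villin gene fell. XIC and XIE are class XI myosins, motors that move organelles along actin, and VLN5 is a villin, an actin-bundling protein known from pollen tubes. XIC had 6.29 and 11.0 reads in atx1/2 against 49.0 and 45.9 in Col-0 (log2 fold change -2.37 ± 0.38, limma adjusted p = 0.0130). XIE had 0 and 0 estimated reads in atx1/2 against 7 and 10 in Col-0 and was at least 2.63-fold lower. VLN5 had 34.2 and 24.6 reads in atx1/2 against 66.5 and 85.0 in Col-0 (log2 fold change -1.34 ± 0.25, limma adjusted p = 0.0309). Their groups did not overlap, but the genes were picked as called ones, so this is not a result. Of 13 class XI myosins tested, 2 were called and the median log2 fold change was -0.09, and of 5 villins VLN5 alone was called, beside 0.201% of all genes tested called lower. XIC and XIE are 86.6% identical to each other, so their few reads are not fully separable. PIP5K5, a lipid kinase of pollen tube tips, had 96.9 and 121 reads in atx1/2 against 172 and 225 in Col-0. MAPKKK6, a MAP kinase kinase kinase needed with its paralogue for pollen development, had 212 and 249 reads in atx1/2 against 547 and 578 in Col-0 (log2 fold change -1.29 ± 0.15, limma adjusted p = 5.93e-04). The call of MAPKKK6 held without any 1 of the 4 libraries. The highest adjusted p when 1 of them was left out was 0.188 for XIC (atx1/2 replicate 1), 0.209 for XIE (Col-0 replicate 2), 0.353 for VLN5 (atx1/2 replicate 2) and 0.409 for PIP5K5 (atx1/2 replicate 1).

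Of the proteins with an XS domain, which bind RNA in the pathways of small RNAs, 3 of 7 tested fell, beside 0.201% of all genes tested; the family was chosen after values were seen. FDM4, which acts in RNA-directed DNA methylation, had 63.5 and 63.1 reads in atx1/2, against 146 and 166 in Col-0 (log2 fold change -1.29 ± 0.15, limma adjusted p = 5.94e-04). Its relative FDM2 had 137 and 167 reads in atx1/2 against 269 and 305 in Col-0 (log2 fold change -0.91 ± 0.17, limma adjusted p = 0.0294). SGS3, the partner of RDR6 in making trans-acting small RNAs, had 422 and 382 reads in atx1/2 against 578 and 641 in Col-0 (log2 fold change -0.60 ± 0.11, limma adjusted p = 0.0240). The groups did not overlap in any of the 3, which were picked as called genes, so this is not a result either. FDM1, FDM3, FDM5 and IDN2 were not called, with log2 fold changes between -0.08 and 0.07. FDM2 is 95.3% identical to FDM1 over 87.1% of its transcript, so its reads are hard to separate from those of FDM1, which had 784 and 817 reads in atx1/2 and 758 and 782 in Col-0. The call of FDM4 held without any 1 of the 4 libraries, while the adjusted p reached 0.355 for FDM2 without atx1/2 replicate 1 and 0.286 for SGS3 without atx1/2 replicate 2.

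Of 14 DNA methylation and demethylation genes tested, 0 were called (limma), 5 had an unadjusted p under 0.05, and the median log2 fold change was -0.09. Both atx1/2 libraries lay below both Col-0 libraries for 7 of the 14, against 17.3% of all genes tested. These were ROS1, a DNA demethylase, NRPE1 and NRPD1, the largest subunits of RNA polymerases V and IV, DCL3, RDR2, the histone demethylase IBM1 and the histone methyltransferase KYP. ROS1 had 1178 and 1276 reads in atx1/2 against 1538 and 1595 in Col-0 (log2 fold change -0.35 ± 0.11, limma adjusted p = 0.381). IBM1 had 624 and 618 reads in atx1/2 against 718 and 771 in Col-0 (log2 fold change -0.26 ± 0.08, limma adjusted p = 0.404). SDC, an F-box gene kept silent by DNA methylation, had 7 and 10 estimated reads in atx1/2 against 2 and 1 in Col-0, a ratio of 6.09 (1.76 to 32.4), and was not called (limma adjusted p = 0.176). The other genes of that kind, FWA and QQS, had overlapping groups.

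Genes of DNA repair included 2 falls. GMI1, a protein with an SMC hinge domain that acts in recombination after DNA damage, had 62.5 and 81.6 reads in atx1/2, against 141 and 189 in Col-0 (log2 fold change -1.18 ± 0.21, limma adjusted p = 0.0246). RECQSIM, a RecQ-type DNA helicase, had 66.6 and 77.3 reads in atx1/2 against 150.1 and 154 in Col-0 (log2 fold change -1.07 ± 0.20, limma adjusted p = 0.0347). GMI1 was the single called member among 7 DNA damage response genes, whose median log2 fold change was -0.09, beside 0.201% of all genes tested called lower. The next, PARP2, had 217 and 209 reads in atx1/2 against 284 and 237 in Col-0 and did not pass (limma adjusted p = 0.604). GMI1 had 50.6 and 71.0 reads in atx4/5, and 257 and 231 in atx1/2/4/5, so atx1/2 and atx4/5 were on the low side of Col-0 and the quadruple mutant on the high side. The contrast of atx1/2 with atx1/2/4/5 passed for this gene (log2 fold change -1.76, limma adjusted p = 1.44e-05). Neither call of atx1/2 against Col-0 held in all fits that left out 1 library. The adjusted p of GMI1 lay between 0.0527 without Col-0 replicate 1 and 0.331 without atx1/2 replicate 1, and that of RECQSIM between 0.139 and 0.335 without the same pair of atx1/2 libraries, replicates 2 and 1.

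Also among the falls were MEE29 and DELTA-VPE, known from embryos and the seed coat. MEE29, a DEAH-box RNA helicase whose loss arrests embryos, had 97.7 and 79.0 reads in atx1/2, against 220 and 253 in Col-0 (log2 fold change -1.41 ± 0.21, limma adjusted p = 0.00702). DELTA-VPE, a vacuolar protease of the seed coat, had 12.4 and 5.70 reads in atx1/2 against 35.7 and 36.1 in Col-0 (log2 fold change -1.96 ± 0.35, limma adjusted p = 0.0242). Its neighbour AT3G20200, a kinase, fell as well, with 27.01 and 22.3 reads in atx1/2 against 107 and 99.5 in Col-0 (log2 fold change -2.03 ± 0.27, limma adjusted p = 0.00243). With 1 of the 4 libraries left out, the highest adjusted p was 0.121 for MEE29 and 0.304 for DELTA-VPE, both without atx1/2 replicate 2, and 0.0542 for AT3G20200 without the same library. The 14 seed markers, of which 6 had both atx1/2 libraries below and 3 above both Col-0 libraries (17.3% and 18.5% of all genes tested), had a median log2 fold change of -1.02 and 0 calls (limma), with 3 at an unadjusted p under 0.05. Their summed level was 317 and 99.3 reads in atx1/2, against 631 and 367 in Col-0, so it varied more than 3-fold between the atx1/2 libraries. Its part in the falls of this paragraph was not tested. CRA1, a seed storage protein, made up much of these sums, with 163 and 22.9 reads in atx1/2 against 407 and 239 in Col-0 (limma adjusted p = 0.722).

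A group of DUF626 genes lay close together on chromosome 1. AT1G23950 had 461 and 476 reads in atx1/2, against 799 and 729 in Col-0 (log2 fold change -0.70 ± 0.09, limma adjusted p = 0.00197). AT1G23970 had 156 and 152 reads in atx1/2 against 300.3 and 310.4 in Col-0 (log2 fold change -0.98 ± 0.15, limma adjusted p = 0.01). AT1G23935, named for similarity to an apoptosis inhibitor, had 36.5 and 47.4 reads in atx1/2 against 143 and 162 in Col-0. AT1G23960, which lies between the pair, was not called (limma adjusted p = 0.679). AT1G23935 (8461757 to 8469573) overlaps the end of AT1G23950 (8469533 to 8471417), which lies on the other strand. Reads of this short shared stretch cannot be told apart. AT1G23950 and AT1G23970 are also 90.9% identical, over 55.2% and 60.3% of their transcripts, so some reads may be assigned to the wrong copy. When Col-0 replicate 1 was left out the adjusted p was 0.0560 for AT1G23950, and the highest was 0.110 for AT1G23970 (without atx1/2 replicate 2) and 0.189 for AT1G23935 (without atx1/2 replicate 1).

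Other falls lay in metabolism and in further kinases. HGL1, a heteroglycan glucosidase of carbohydrate metabolism, had 1239.9 and 1224 reads in atx1/2, against 2559 and 2607 in Col-0 (log2 fold change -1.07 ± 0.16, limma adjusted p = 0.0246). G6PD3, a plastid glucose-6-phosphate dehydrogenase, had 546 and 466 reads in atx1/2 against 961 and 837 in Col-0 (log2 fold change -0.83 ± 0.10, limma adjusted p = 0.00103). GA2, the ent-kaurene synthase of gibberellin synthesis, had 295 and 290.2 reads in atx1/2 against 436 and 527 in Col-0, and KCS1, an enzyme of wax synthesis, had 2776 and 2876 against 3509 and 3709. PFK2, a phosphofructokinase of glycolysis, had 142 and 108 reads in atx1/2 against 266 and 232 in Col-0 (limma adjusted p = 0.00734, and 0.126 without atx1/2 replicate 2). The other falls with a symbol were HSA32, EMB2788 and PMI15. HSA32, a gene of heat acclimation, had 62.5 and 69.6 reads in atx1/2 against 132 and 131 in Col-0 (limma adjusted p = 0.0242). EMB2788 had 179 and 237 against 324 and 347 (limma adjusted p = 0.0452). PMI15, of chloroplast movement and annotated as a pseudogene, had 826 and 775 against 1019 and 1158 (limma adjusted p = 0.0473). Each of these calls was lost in some fit that left out 1 of the 4 libraries. CES101, a lectin receptor kinase, had 172 and 157 reads in atx1/2 against 365 and 358 in Col-0 (log2 fold change -1.13 ± 0.13, limma adjusted p = 7.53e-04). The related AT1G61500 had 92.7 and 105 reads in atx1/2 against 209 and 261 in Col-0 (log2 fold change -1.24 ± 0.15, limma adjusted p = 0.00103). The word kinase stood in the product names of 12 of the 50 falls (24%) and of 5.08% of the genes tested, a word chosen after the list was seen. The calls of G6PD3, CES101 and AT1G61500 held without any 1 of the 4 libraries. The adjusted p of HGL1 was 0.173 to 0.194 in these fits, that of GA2 reached 0.252 without Col-0 replicate 2 and that of KCS1 0.361 without atx1/2 replicate 1.

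Among the 20 rises, 4 genes had a symbol and passed the rule for named genes. ESM1, a lipase-like protein that steers glucosinolate breakdown towards isothiocyanates, had 21753 and 22763 reads in atx1/2, against 14849 and 13438 in Col-0 (log2 fold change 0.66 ± 0.08, limma adjusted p = 5.94e-04). It was the 1 rise whose call held without any 1 of the 4 libraries. ESM1 had 6164 and 6577 reads in atx4/5 and 6365 and 6997 in jmj24/26/28, below Col-0, and the direct contrast of atx1/2 with atx4/5 passed (log2 fold change 1.81, limma adjusted p = 2.65e-09). GRXC1, a glutaredoxin, had 846 and 788 reads in atx1/2 against 585 and 519 in Col-0 (log2 fold change 0.57 ± 0.08, limma adjusted p = 0.00345). GH3.9, of the GH3 family of auxin-conjugating enzymes, had 481 and 492 reads in atx1/2 against 255 and 318 in Col-0 (log2 fold change 0.77 ± 0.14, limma adjusted p = 0.0242). RLP19, a receptor-like protein, had 1106 and 1252 reads in atx1/2 against 803 and 915 in Col-0 (log2 fold change 0.46 ± 0.09, limma adjusted p = 0.0352). The naming rule takes only genes whose groups do not overlap, so the lack of overlap in these 4 is not a result. The highest adjusted p with 1 library left out was 0.0761 for GRXC1 (atx1/2 replicate 1), 0.267 for GH3.9 (Col-0 replicate 1) and 0.416 for RLP19 (atx1/2 replicate 2).

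**Figure D3:**
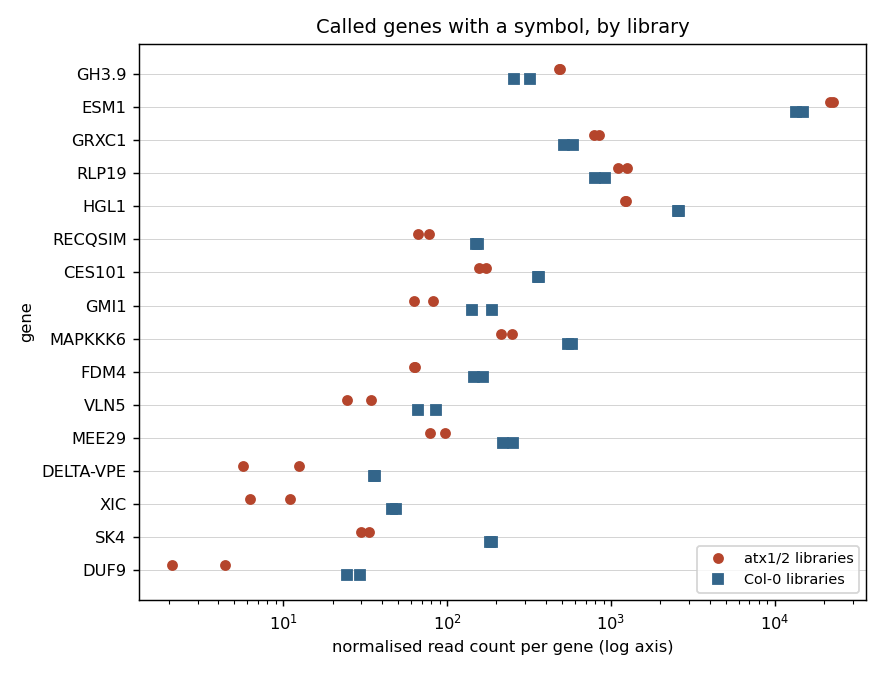
Normalised read counts, on a log axis, of the 16 called genes chosen by the naming rule, with atx1/2 libraries as red circles and Col-0 libraries as blue squares. In the upper 4 rows (GH3.9, ESM1, GRXC1 and RLP19) both atx1/2 libraries are above both Col-0 libraries, and in the other 12 both are below. The rule takes only genes whose groups do not overlap.

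A pair of neighbouring lipid-transfer superfamily genes on chromosome 4 rose together, AT4G12490 and AT4G12500. Their relatives in the same stretch include AZI1 and EARLI1, small secreted proteins known from defence priming and cold response. AT4G12490 had 149 and 191 reads in atx1/2, against 62.4 and 97.8 in Col-0 (log2 fold change 1.1 ± 0.20, limma adjusted p = 0.0246). AT4G12500 had 195 and 181 reads in atx1/2 against 81.8 and 97.7 in Col-0 (log2 fold change 1.06 ± 0.18, limma adjusted p = 0.0144). The pair are 85.8% identical over the aligned part of their transcripts, so some reads may be assigned to the wrong copy. EARLI1 had 4995 and 5532 reads in atx1/2 against 4141 and 4820 in Col-0, and did not pass (limma adjusted p = 0.538), nor did AZI1 (0.784), AT4G12510 (0.547) or AT4G12520 (0.572). AT4G12490 was higher still in atx1/2/4/5, at 593 and 587 reads, and the contrast of atx1/2 with it passed (log2 fold change -1.80, limma adjusted p = 5.92e-06). The highest adjusted p with 1 library left out was 0.308 for AT4G12490 (atx1/2 replicate 2) and 0.188 for AT4G12500 (atx1/2 replicate 1).

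The largest rises were in low-level genes. The noncoding RNAs AT1G06963 and AT2G06305 rose, AT1G06963 with 8 and 7 estimated reads in atx1/2 and AT2G06305 with 9 and 5, against 0 and 0 in Col-0 for both. With 3 reads per library as the floor, AT1G06963 was at least 2.68-fold higher and AT2G06305 at least 2.49-fold higher. AT3G29633, an uncharacterized protein, had 15 and 11 estimated reads in atx1/2 against 1 and 1 in Col-0, a ratio of 13.9 (3.49 to 121). A pair of F-box genes rose, AT1G48400 with 32.2 and 24.5 reads in atx1/2 against 3.08 and 5.87 in Col-0, and AT3G17280 with 72.9 and 87.2 against 33.7 and 32.2. The word F-box, chosen after the list was seen, stood in the product names of 2 of the 20 rises (10%). It stood in 1 of the 50 falls (2%), AT3G62500, and in 1.27% of the genes tested. AT2G33175 had 22.8 and 12.4 reads in atx1/2 against 2.05 and 2.93 in Col-0. It was the 1 called gene of 509 tested (0.196%) within 1 Mb of ATX1, beside 0.282% of all genes tested. Within 1 Mb of ATX2 0 of 579 were called. None of these rises held in all 4 fits that left out 1 library: the highest adjusted p was 0.193 for AT1G06963, 0.331 for AT2G06305, 0.173 for AT3G29633, 0.215 for AT1G48400 and 0.379 for AT2G33175 without atx1/2 replicate 1, and 0.194 for AT3G17280 without atx1/2 replicate 2.

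Some genes with large differences were not called. By a rule chosen after the values were seen (a higher group mean of at least 100 reads, no overlap and a log2 fold change of at least 1.5 in size), there were 6, of which 4 are described here; the others were CRA1, given above, and AT3G16650. SBT3.12, a subtilisin-like protease, had 7.34 and 13.1 reads in atx1/2, against 263 and 318 in Col-0 (log2 fold change -4.74 ± 0.98, limma adjusted p = 0.191). AT1G36070, a WD40-repeat protein, had 80.1 and 74.3 reads in atx1/2 against 471 and 454 in Col-0 (log2 fold change -2.57 ± 0.53, limma adjusted p = 0.189). In atx1/2/4/5 these had 16.2 and 0.31 reads and 36.6 and 7.85 reads. Without atx1/2/4/5 replicate 1, an alternative added after the data were seen, both passed (limma adjusted p = 1.36e-06 for SBT3.12 and 1.00e-07 for AT1G36070), as they did with only the atx1/2 and Col-0 libraries (0.0119 and 0.00835).

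In the other direction, the long noncoding RNA AT3G05945 had 478 and 444 reads in atx1/2, against 39.9 and 66.5 in Col-0 (log2 fold change 3.14 ± 0.74, limma adjusted p = 0.261). It had 3.51 and 3.596 reads in atx4/5, and it passed without the atx1/2/4/5 and atx2/3/4/5 libraries (limma adjusted p = 2.35e-04) and with atx1/2 and Col-0 alone (0.0214). AT3G22235, a cysteine-rich stress tolerance protein, had 1464 and 1817 reads in atx1/2 against 411 and 472 in Col-0 (log2 fold change 1.89 ± 0.31, limma adjusted p = 0.0898), and passed with atx1/2 and Col-0 alone (0.0119). For all 4 genes, whose lack of overlap was part of the rule, the result of the test changed both with the libraries in the fit and with its settings. With all 14 libraries and a pseudocount of 5, AT1G36070 (limma adjusted p = 0.0493), AT3G05945 (0.00183) and SBT3.12 (0.00331) passed. Without the robust option AT1G36070 (0.03), SBT3.12 (0.03) and AT3G22235 (0.00553) passed.

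Genes of H3K4 methylation were examined next. Of 15 COMPASS and other H3K4 methyltransferase genes, 9 H3K4 demethylase genes and 12 Polycomb genes, H3K27 demethylases and ULT1, 0 were called (limma), and the medians of their log2 fold changes were -0.02, -0.03 and 0. With limma, 1 of these 36 genes had an unadjusted p under 0.05. It was REF6, an H3K27 demethylase, with 847 and 859 reads in atx1/2 against 944 and 961 in Col-0 (limma adjusted p = 0.698). WDR5A had 99.7 and 80.1 reads in atx1/2 and 86.9 and 113 in Col-0, with overlapping groups.

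Of the flowering genes, 0 were called (limma). An unadjusted p under 0.05 was reached by 3 of 6 FLC clade members and 1 of 8 flowering promoters tested, beside 7.03% of all genes tested. Of these FLC clade members, MAF5 and MAF4 were lower in atx1/2 and MAF2 was higher. FLC, the repressor linked to ATX1 in earlier work, had 5.19 and 3.37 reads in atx1/2, against 6.15 and 10.8 in Col-0 (log2 fold change -0.82 ± 0.48, limma adjusted p = 0.824). Both atx1/2 values were the lower ones, at under 11 reads in all 4 libraries. MAF5, a relative of FLC, had 4.16 and 3.35 reads in atx1/2 against 10.3 and 25.5 in Col-0 (log2 fold change -1.87 ± 0.43, limma adjusted p = 0.114), and MAF4 had 10.4 and 11.1 against 28.6 and 31.2 (limma adjusted p = 0.305). The groups of both did not overlap. The members with more reads differed less: MAF2 had 1145 and 1094 reads in atx1/2 against 939 and 1041 in Col-0, and FLM and MAF3 had log2 fold changes of 0.01 and -0.04. FLC and MAF5 were lower in atx1/2 than in atx4/5 by the direct contrast (log2 fold change -2.27 and -2.91, limma adjusted p = 0.0113 and 7.30e-04). FT, the mobile flowering signal, had 6.24 and 5.56 reads in atx1/2 and 10.2 and 2.89 in Col-0. The meristem identity gene FUL had 44.8 and 49.7 reads in atx1/2 against 24.5 and 29.3 in Col-0 (log2 fold change 0.79 ± 0.36, limma adjusted p = 0.689).

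WRKY70, the defence regulator linked to ATX1, had 495 and 1016 reads in atx1/2, and 554 and 882 in Col-0 (log2 fold change 0.02, limma adjusted p = 1). The groups overlapped, and the spread within each was wide. Of the 19 genes of the salicylic acid response 0 were called (limma), 5 had an unadjusted p under 0.05 and the median log2 fold change was 0.24. Both atx1/2 libraries lay above both Col-0 libraries for 7 of the 19, against 18.5% of all genes tested. PR2, a glucanase of defence, had 101 and 117 reads in atx1/2 against 45.1 and 76.3 in Col-0 (log2 fold change 0.88 ± 0.19, limma adjusted p = 0.113). It passed without Col-0 replicate 2 (log2 fold change 1.25, limma adjusted p = 0.00234). PCC1, a pathogen-responsive membrane protein, had 291 and 269 reads in atx1/2 against 127 and 176 in Col-0 (limma adjusted p = 0.520), and WRKY54 had 34.4 and 46.3 against 14.4 and 25.4 (limma adjusted p = 0.597). PR1, PR5 and ICS1 had overlapping groups.

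The hormone, stress and metabolic lists held 0 calls (limma), with unadjusted p-values under 0.05 in 0 to 5 members each. The jasmonate list had 5 such members, 4 of them on the low side. AOC1, an enzyme of jasmonate synthesis, had 1295 and 1218 reads in atx1/2 against 1743 and 1516 in Col-0 (log2 fold change -0.37 ± 0.10, limma adjusted p = 0.263), and AOS had 5032 and 4779 against 5924 and 5146 (limma adjusted p = 0.597). AOC1 and AOS were lower in atx1/2 than in atx4/5 by the direct contrast (limma adjusted p = 0.00318 and 6.60e-05). In the flavonoid list, whose median log2 fold change was 0.19, CHS, the first enzyme of the pathway, had 6526 and 6618 reads in atx1/2 against 4937 and 5035 in Col-0 (log2 fold change 0.40 ± 0.14, limma adjusted p = 0.572). It passed without atx1/2/4/5 replicate 1 (limma adjusted p = 0.0225) and without both quadruple mutants (0.0481). CYP79B3, of indole glucosinolate synthesis, had 1324 and 1228 reads in atx1/2 against 1725 and 1519 in Col-0 (limma adjusted p = 0.294). The medians of the 20 photosynthesis genes, 14 clock genes and 17 auxin response genes were -0.01, 0.01 and -0.04.

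The heat shock list had the highest median, 0.28, with 1 of 11 members at an unadjusted p under 0.05. HSFA7A, a heat shock factor, had 559 and 488 reads in atx1/2, against 406 and 460 in Col-0 (limma adjusted p = 0.475). No marker of roots or shoot meristems was called (limma). The 14 root markers had a median of -0.08 and a summed level of 65592 and 55684 reads in atx1/2, against 71211 and 56395 in Col-0. Root hair genes were high in Col-0 replicate 1: EXPA18, an expansin, had 341 and 320.2 reads in atx1/2 and 613 and 316 in Col-0. The 7 shoot meristem and boundary genes had a median of 0.13, and WUS and CLV3 were at 0 reads in all 4 libraries.

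**Figure D4:**
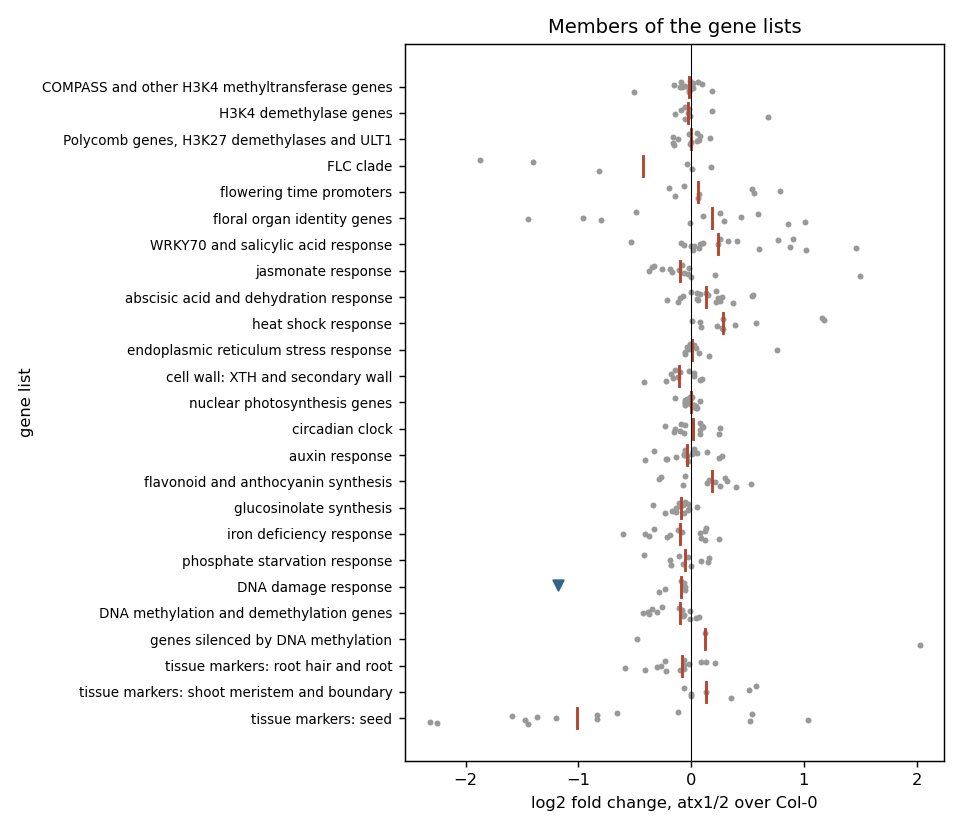
Log2 fold change (atx1/2 over Col-0) of the members of each gene list, with the red bar at the list's median. Grey points were not called, and the blue triangle is GMI1, the 1 called member of the 25 lists, at -1.18.

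More genes were called between atx1/2 and the other atx genotypes contrasted with it than between atx1/2 and Col-0. Against atx4/5 796 genes were higher in atx1/2 (3.2%) and 428 lower (1.72%), and against atx1/2/4/5 3944 were higher (15.9%) and 3750 lower (15.1%). These comparisons share the atx1/2 libraries with the one against Col-0. The called genes took several forms across the table, and their Col-0 libraries are the same in every genotype's comparison. AT2G06305 was at 0 reads in all libraries of the fit other than those of atx1/2. In the 4 Col-0 libraries outside the fit, which were normalised separately, it had 6.18 to 15.6 reads, against 9.33 and 5.63 in atx1/2. The rise was thus not seen against these libraries. HGL1 had 1239.9 and 1224 reads in atx1/2, 425 and 289 in atx1/2/4/5, 2384 and 2425 in atx4/5, 1540 and 1234 in WDR5A_RNAi and 2559 and 2607 in Col-0, and atx1/2 differed from both mutants in the direct contrasts (limma adjusted p = 1.38e-05 for atx1/2/4/5 and 0.00644 for atx4/5). FDM4 was at 63.5 and 63.1 reads in atx1/2 and at 160.1 and 146 in atx1/2/4/5, close to the 146 and 166 of Col-0, and the direct contrast passed (limma adjusted p = 9.82e-06).

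**Figure D5:**
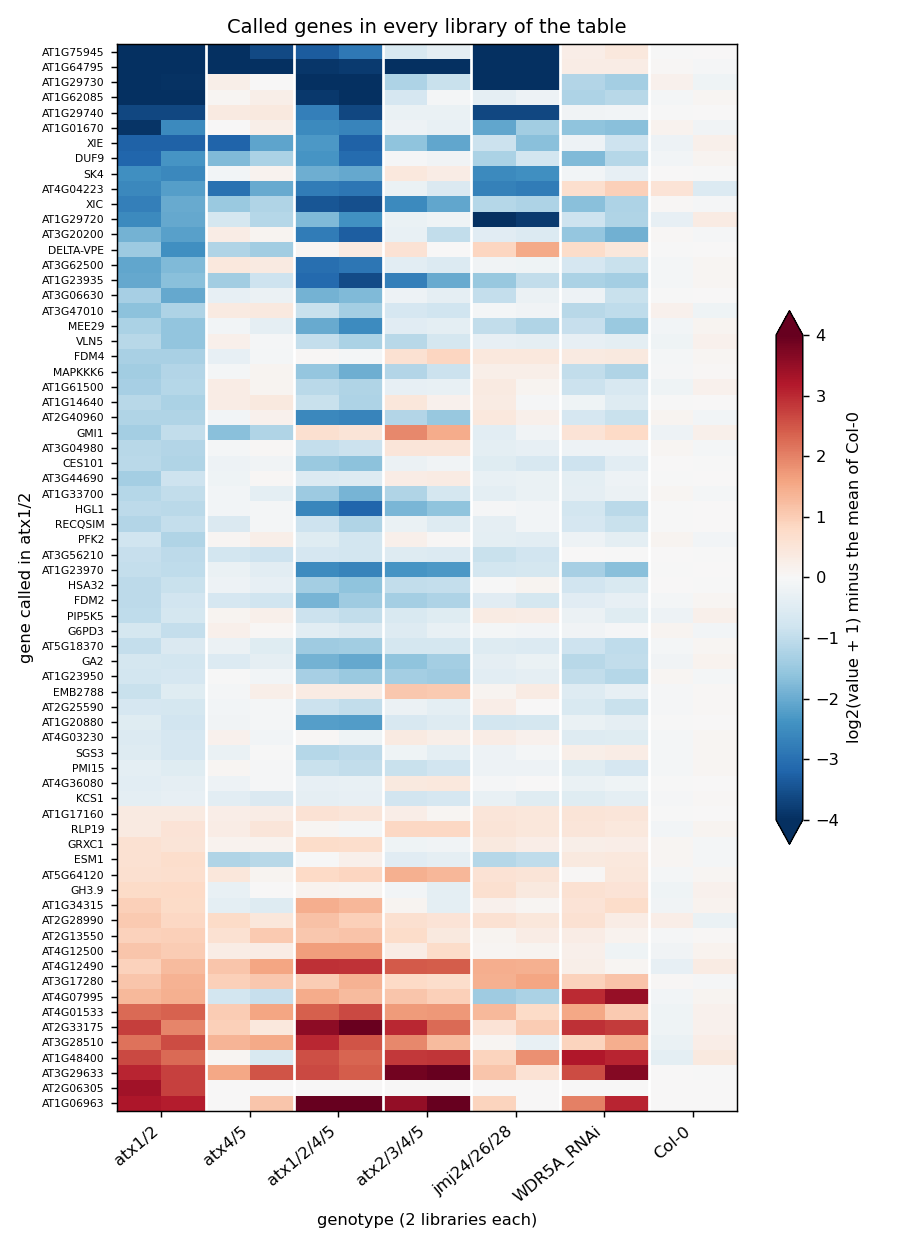
The 70 genes called in atx1/2 against Col-0 in all 14 libraries of the table, as log2(value + 1) minus the mean of the 2 Col-0 libraries, with the scale ending at -4 and 4. The atx1/2 columns at the left and the Col-0 columns at the right chose the genes, so their contrast is not a result. The other columns show where each genotype stood, such as SK4 near Col-0 in atx4/5 (172 and 205 reads) and low in atx1/2/4/5 (46.99 and 43.6) and jmj24/26/28 (30.6 and 32.7).

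The called genes lay on all 5 chromosomes. Chromosome 1 held 21 of the 50 falls among 6624 genes tested there (0.317%), chromosome 3 held 11 of 4890 (0.225%) and chromosome 2 held 4 of 3813 (0.105%). In 4 places called genes lay within 3 tested genes of each other, and these runs held 10 of the 70 genes. The genes that fell were long: the median span was 3586 bases for the falls and 1730 for the rises, beside 2182 for all genes tested, and the median number of exons was 7.5 and 2, beside 4. The annotation gives 48 of the 50 falls and 17 of the 20 rises as protein coding, beside 93.7% of genes tested. Of the 70 genes, 28 overlap another gene model, among them SK4, DELTA-VPE, MAPKKK6, FDM4, GMI1, CES101 and GH3.9, and with the strand not given reads of the overlap cannot be assigned.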

How the data were processed

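RNA sequencing values per gene were taken from the deposited table of 14 libraries that holds atx1/2 and its own Col-0. HISAT2 2.2.0, edgeR with no version, and TAIR10 are named in the submitters' processing notes. The read counter, strand use and filters are not given in the sources used here, nor, per the labels, which libraries were 150-base paired or 50-base single reads. The deposited values are a normalised signal per gene, in the pattern of edgeR pseudo-counts, scaled within the table by the authors; whole reads could not be recovered, so no count model was run. Read sizes for depth, floors and counting intervals were estimated from the spacing of low values, and these intervals cover counting error only.

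From there, log2(value + 1) entered a limma model (version 3.58.1, with statmod 1.5.0 under R 4.3.3) of 7 groups, with a mean-variance trend, robust empirical Bayes and Benjamini-Hochberg adjustment over 24843 genes; the fit was tested on simulated data. With 2 against 2 libraries the smallest exact permutation p is 0.333, so the spread was pooled over all 7 groups. Alternatives were other pseudocounts, filters, scalings, fits and left-out libraries. Named genes were ATX1, ATX2, FLC, FT, WRKY70, called genes with a symbol, a mean of at least 10 and no overlap (12 per direction at most), and 3 members by p from each of 25 lists, all 311 genes of which were in the table and 307 tested. Members, lists and rules were chosen with earlier results of these data known; genes without a symbol, families and words were chosen after values were seen. All 32548 identifiers matched the TAIR10.1 RefSeq annotation, which gave coordinates, products and sequences; transcripts were compared with blastn 2.17.0.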

Additional observations from a re-analysis of the deposited data

How the results depend on the processing

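Beside the 20 rises and 50 falls, other settings gave 13 rises (no robust option), 33 rises and 75 falls (replicate block), 2 rises and 10 falls (atx1/2 and Col-0 libraries only) and 32 falls (no filter on low values). The called genes also changed: of the 70 calls, 20 remained with no filter, 7 with atx1/2 and Col-0 alone (0 of them rises), 40 with no mean-variance trend and 51 with no robust option, while all 70 remained with the block. Leaving out 1 of the 4 libraries gave 2 to 13 rises and 15 to 31 falls, and leaving out atx1/2/4/5 replicate 1, chosen after seeing the data, gave 22 and 56. ATX2 kept its direction in 15 of 16 alternatives, and without Col-0 replicate 2 its log2 fold change was 0.05; leave-one-out values ran from -0.08 to 0.05 for ATX2 and from -0.51 to -0.50 for ATX1. Same-numbered libraries of atx1/2 and Col-0 deviated together at r = 0.24 over 20487 genes, and 9 of 21 pairs of genotypes were over 0.1, with a range of 0.01 to 0.28. The labels name no shared batch and each genotype has only 2 numbers, so whether the numbers pair the samples cannot be told, and the fit without the block was kept; with the block PR2 also passed (adjusted p = 0.0143). Uncalled log2 fold changes that changed sign, with their range when 1 library was left out, were FT (-0.70 without Col-0 replicate 2, -0.01 without atx1/2 replicate 1 and with a pseudocount of 5, up to 0.82), WRKY70 (-0.50 without atx1/2 replicate 2, -0.31 without Col-0 replicate 1, up to 0.54), FWA (-0.98 to 0.03), BHLH38 (-0.90 to 0.16), JMJ15 (-0.71 to 2.06), GI (-0.13 to 0), RBCS2B (-0.28 to 0), GH3.3 (-0.03 to 0.58), QQS (-0.17 to 0.41), EXPA18 (-0.89 to 0.07) and PRP3 (-0.69 to 0.10). JMJ15 and those listed after it did so without Col-0 replicate 1. Fits with fewer libraries or genes test less; other causes were not tested. With 1 library left in a group, it was assumed to vary like the other groups. Genes under 10 reads have imprecise folds at this depth.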

Other observations

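The 2 other deposited tables hold 4 further Col-0 libraries, normalised separately, so levels set across tables are only a description. Of the genes called in atx1/2, 31 of the 50 falls had both atx1/2 values below all 6 Col-0 libraries of the series, and 14 of the 20 rises had both above. These 6 include the 2 Col-0 libraries that the calls rest on, and the share over all genes tested was not computed. The counts are therefore not a test of the calls. AT1G75945 had 1.03 and 0.013 reads in atx1/2, against 150.3 to 222 in the other 4 Col-0 libraries, and SK4 had 33.3 and 29.98 against 113 to 170.4. Some genes whose calls held without any 1 of the 4 libraries did not lie outside all 6: ESM1, with 21753 and 22763 reads in atx1/2, had 14591 to 23846 in the other 4 Col-0 libraries, and AT3G56210, with 556 and 511 in atx1/2, had 372 to 897. DELTA-VPE, KCS1, HGL1 and GH3.9 also show how far Col-0 itself ranged: DELTA-VPE had 12.4 and 5.70 reads in atx1/2 and 0.001 to 12.2 in the other 4 Col-0 libraries, KCS1 2776 and 2876 and 979.9 to 1432, HGL1 1239.9 and 1224 and 1201 to 2384, and GH3.9 481 and 492 and 36.5 to 261. GA2, called lower, had 295 and 290.2 reads in atx1/2, above the 195 to 282 of the other 4 Col-0 libraries. XIE had 0 and 0 estimated reads in atx1/2 and 1.03 to 3.11 reads in those 4. AT2G06305, called higher, had 9.33 and 5.63 reads in atx1/2 and 6.18 to 15.6 in those 4. ATX1 had 181 and 181 reads in atx1/2 and 161 to 337 in the other 4 Col-0 libraries.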
